A study of Mus musculus with 12 samples.

Results

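The interleukin 1 genes described here are Il1a and Il1b, which encode the cytokines interleukin 1α and 1β, Il1rn, which encodes the secreted antagonist of their receptor, and Il1rap, which encodes the co-receptor chain. They were taken by symbol from a table of 78317 genes, so they are 4 of 78317, and each symbol had 1 identifier. They were put together with earlier results of the same libraries known, so their levels, fold changes and calls are given as a description. The difference of the TGFβ1 effect between genotypes was also tested for them. It is built from the same comparisons, so its p-values are not independent of the choice. The cells were 4T1, a mouse mammary carcinoma line that the labels call triple negative breast cancer. The groups, 4 of 3 biological replicates each, were PBRM1 KO cells with TGFβ1, PBRM1 KO cells untreated, control cells with TGFβ1 and control cells untreated. TGFβ1 was given at 5 ng/ml for 4 days, and all cells grew in the same serum-containing medium. The titles mark the untreated libraries as 0h, and no untreated group of 4 days is named. An effect of TGFβ1 and one of time in culture therefore cannot be told apart in the comparisons with TGFβ1. PBRM1 is a subunit of the PBAF chromatin remodelling complex, and TGFβ1 is a cytokine that acts through SMAD factors. The library names carry sgPB for PBRM1 KO cells and sgCt for control cells, where sg is a common prefix for a single guide RNA; the labels do not spell it out. The position of the edit, and whether the KO cells were 1 clone, are not given in the sources used here.

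Interleukin 1α and 1β bind the same receptor, IL1R1, which then recruits the accessory protein encoded by Il1rap and signals through MYD88 and IRAK kinases to NF-κB and MAP kinases. Interleukin 1α is active as made and is released by damaged cells, whereas the precursor of interleukin 1β has to be cut, usually by caspase-1 in an inflammasome. The antagonist encoded by Il1rn occupies the receptor without bringing in the accessory protein. In carcinomas, interleukin 1 is known for inducing chemokines and growth factors that draw myeloid cells.

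Library totals ran from 9265693 to 11250850 counts. The summed level of 6 epithelial markers was 1903 to 2007 CPM in PBRM1 KO cells with TGFβ1, 2200 to 2358 CPM in untreated PBRM1 KO cells, 1634 to 1892 CPM in control cells with TGFβ1 and 2321 to 2428 CPM in untreated control cells (CPM, the count scaled to a fixed library total). With TGFβ1, Cdh1, Krt8 and Krt19 fell in PBRM1 KO cells, and these and Krt18 in control cells (edgeR, adjusted p below 0.05). Krt14 and Epcam did not fall and did not pass. Krt14 averaged 35.4 CPM with TGFβ1 and 7.41 CPM untreated in PBRM1 KO cells, and 55.2 and 20.6 CPM in control cells. Epcam averaged 233 and 187 CPM in PBRM1 KO cells, and 206 and 202 CPM in control cells. The markers thus moved in both directions with the TGFβ1 changes given here, and their part in them was not tested. The 12 leukocyte markers summed to 17.3 to 29.4 CPM per library. On the first principal component, which held 53.2% of the variance, TGFβ1 replicates 1 and 2 of both genotypes lay between −43.7 and −38.9 and untreated libraries between 18.9 and 33.1. TGFβ1 replicate 3 stood apart from its group in both genotypes, at 1.04 in PBRM1 KO cells and −1.40 in control cells. Values of the members that involve TGFβ1 are therefore also given without these 2 libraries, and for the rest of the pathway the calls without them. Pbrm1 itself averaged 243 ± 27.1 CPM in PBRM1 KO cells and 286 ± 8.68 CPM in control cells with TGFβ1, and 225 ± 19.1 CPM in PBRM1 KO cells and 282 ± 39.5 CPM in control cells untreated (SD, n = 3). Counts at the 3′ end of a transcript do not check an edit whose position is not given.

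Il1a and Il1b lie next to each other on chromosome 2 on the same strand, and since both had their lowest level in untreated PBRM1 KO cells and their highest in control cells with TGFβ1, the 250 bases before the annotated start of each are printed here. They come from RefSeq on build GRCm38.p6, 5′ to 3′ on the minus strand that carries both genes, at chr2:129309973-129310222 for Il1a and chr2:129371140-129371389 for Il1b. Capitals mark TATAAA, the TATA box core, and in Il1a also a match to TGANTCA, the AP-1 motif.
Il1a promoter: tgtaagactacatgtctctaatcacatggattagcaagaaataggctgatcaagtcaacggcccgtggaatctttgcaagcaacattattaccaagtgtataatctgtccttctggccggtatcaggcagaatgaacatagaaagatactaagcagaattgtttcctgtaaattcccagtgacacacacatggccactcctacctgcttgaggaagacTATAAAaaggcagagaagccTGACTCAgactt
Il1b promoter: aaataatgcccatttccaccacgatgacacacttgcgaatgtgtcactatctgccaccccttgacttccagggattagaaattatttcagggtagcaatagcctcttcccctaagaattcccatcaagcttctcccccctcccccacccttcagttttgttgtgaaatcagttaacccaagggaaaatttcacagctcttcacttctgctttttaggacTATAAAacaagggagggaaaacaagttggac
TATAAA lay 32 to 27 bases before the start in Il1a and 31 to 26 bases before it in Il1b, and 12.4% of 32851 mouse promoters of this length hold it on either strand. The AP-1 match, which reads the same way on both strands, lay 12 to 6 bases before the start of Il1a and was not in the Il1b window, against 6.75% of promoters. Neither window held CAGACA, a SMAD motif, or TTGCNNNAA, a C/EBP type motif, on either strand, which are in 17.1% and 8.29% of promoters. Nor did they hold the degenerate NF-κB type motif, GGG and CC with any 5 bases between, which is in 45.8% of promoters. The Il1rap window, in turn, held 6 matches to the NF-κB type motif, of which 2 pairs overlapped, and no TATAAA. These are matches of letters in a window, not measured binding sites. Other forms of the motifs were not searched, so a window without a match may still hold one of them.

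Il1a and Il1b were lower in PBRM1 KO than in control cells with and without TGFβ1, and higher with TGFβ1 than untreated in both genotypes. Il1rap was higher with TGFβ1, with log2 fold changes of PBRM1 KO over control of −0.27 with TGFβ1 and 0.18 untreated. Il1rn was almost without counts. A gene is called here where its edgeR quasi-likelihood test had a Benjamini-Hochberg adjusted p below 0.05. The 3 members that passed the filter on low counts, Il1a, Il1b and Il1rap, were all among the genes called higher with TGFβ1 in PBRM1 KO cells, where 7.65% of all tested genes were. With TGFβ1 in control cells Il1a and Il1rap were, where 5.89% of genes were. Il1a and Il1b were among the genes called lower by genotype, where 0.2% of genes were with TGFβ1 and 0.236% untreated. The CPM of the groups did not overlap for these 3 members with TGFβ1, where 16.1% of all tested genes stood apart and higher in PBRM1 KO cells and 14% in control cells, nor for Il1a and Il1b by genotype, where 5.61% stood apart and lower with TGFβ1 and 8.71% untreated. The members were chosen on these comparisons, so nothing is read from these counts. In bulk RNA, fewer cells that express a gene and less RNA per cell cannot be told apart.

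Il1a was the member with the widest range of levels. It had 92.4, 97.4 and 81.8 CPM in PBRM1 KO cells with TGFβ1 and 4.80, 6.55 and 9.06 CPM in untreated PBRM1 KO cells. In control cells it had 374, 465 and 640 CPM with TGFβ1 and 73.1, 125 and 122 CPM untreated. The groups did not overlap in any of the 4 comparisons, and PBRM1 KO cells with TGFβ1 lay within the range of untreated control cells. The means were 90.5 ± 7.98 CPM in PBRM1 KO cells with TGFβ1, 6.80 ± 2.14 CPM in untreated PBRM1 KO cells, 493 ± 135 CPM in control cells with TGFβ1 and 107 ± 29.1 CPM in untreated control cells (SD, n = 3 each). The Il1a mean in PBRM1 KO cells was thus 6.38% of that in control cells without TGFβ1 and 18.4% of it with TGFβ1.

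**Figure D1:**
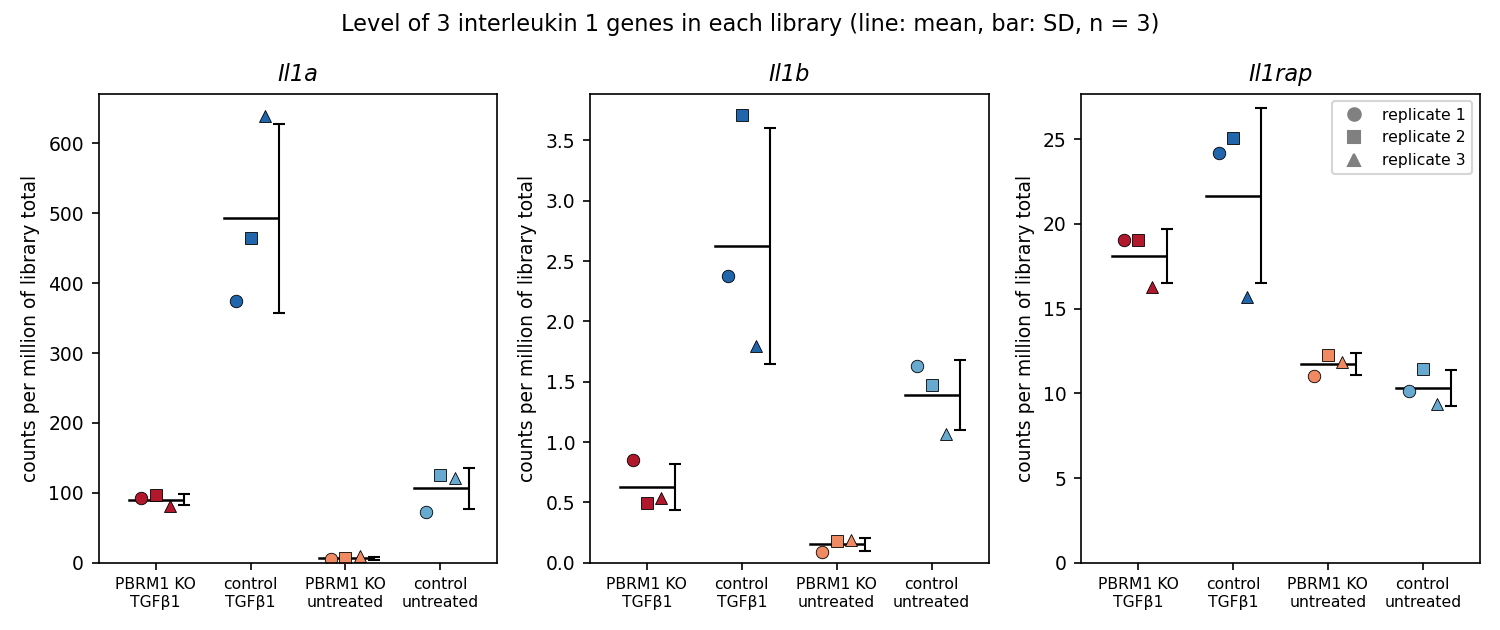
Level of Il1a, Il1b and Il1rap in each of 12 libraries, in CPM on a linear axis from 0, by group. Points are libraries with the replicate number as the marker shape, lines are means and bars SD (n = 3); Il1a in PBRM1 KO cells with TGFβ1 (81.8 to 97.4) sits beside untreated control cells (73.1 to 125), and replicate 3 is the lowest TGFβ1 library for Il1rap in both genotypes.

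On the edgeR scale, Il1a was higher with TGFβ1 by a log2 fold change of 3.72 ± 0.28 (SE) in PBRM1 KO cells and 2.20 ± 0.24 in control cells. By genotype, its log2 fold change of PBRM1 KO over control was −2.46 ± 0.24 with TGFβ1, rank 12 from the lowest of 14012 genes tested. Without TGFβ1 it was −3.98 ± 0.28, rank 6 from the lowest. Without the TGFβ1 replicate 3 libraries, the log2 fold change with TGFβ1 was 3.78 in PBRM1 KO cells and 1.96 in control cells, and that of genotype with TGFβ1 was −2.16. Replicate 3 had the highest Il1a level of the control cells with TGFβ1 and the lowest of the PBRM1 KO cells with TGFβ1. In the fits that left out 1 library, the value ran from −4.24 to −3.77 for genotype untreated and from −2.62 to −2.21 for genotype with TGFβ1.

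Il1b was near the limit of detection in the PBRM1 KO cells. It had 9, 5 and 6 counts in PBRM1 KO cells with TGFβ1 and 1, 2 and 2 counts in untreated PBRM1 KO cells. Control cells had 22, 41 and 19 counts of it with TGFβ1 and 18, 16 and 10 counts untreated. As with Il1a, the groups did not overlap in any of the 4 comparisons, whether as counts or as CPM. The means were 0.628 ± 0.193 CPM in PBRM1 KO cells with TGFβ1, 0.152 ± 0.0546 CPM in untreated PBRM1 KO cells, 2.63 ± 0.980 CPM in control cells with TGFβ1 and 1.39 ± 0.291 CPM in untreated control cells (SD, n = 3 each). Il1b entered the test through the control groups, since no PBRM1 KO library had 10 counts.

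Summed over replicates, Il1b had 5 counts in untreated PBRM1 KO cells and 44 in untreated control cells, a ratio per library total of 0.108 with an exact binomial 95% interval of 0.0333 to 0.271. With TGFβ1, the sums were 20 counts in PBRM1 KO cells and 82 in control cells, a ratio of 0.237 with an interval of 0.138 to 0.390. These intervals describe counting error only. The ratio of TGFβ1 to untreated was 4.15 with an interval of 1.51 to 14.2 in PBRM1 KO cells and 1.89 with an interval of 1.29 to 2.79 in control cells.

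The fitted log2 fold change of Il1b was 1.96 ± 0.57 (SE) with TGFβ1 in PBRM1 KO cells and 0.91 ± 0.30 with TGFβ1 in control cells. For PBRM1 KO over control it was −2.06 ± 0.34 with TGFβ1 and −3.11 ± 0.49 untreated, where it ranked 10 from the lowest. Without both TGFβ1 replicate 3 libraries the log2 fold change was 2.06 with TGFβ1 in PBRM1 KO cells, 1.12 with TGFβ1 in control cells and −2.18 by genotype with TGFβ1. The members were chosen on these comparisons, so the calls of Il1b are given as a description and nothing is read from them. Il1b was among the called genes in each comparison of the 12 libraries except TGFβ1 in control cells. It was not called for TGFβ1 in PBRM1 KO cells by DESeq2 (adjusted p 0.0820), nor for genotype with TGFβ1 when only those 6 libraries were fitted (edgeR adjusted p 0.225). It left the called genes in 5 of the 6 fits that each dropped 1 library. For TGFβ1 in PBRM1 KO cells the exception was the fit without PBRM1 KO TGFβ1 replicate 3, and the value ran from 1.69 to 2.10. For genotype with TGFβ1 the exception was the fit without control TGFβ1 replicate 3, with values from −2.32 to −1.72. For genotype untreated it was the fit without untreated control replicate 3, with values from −3.26 to −2.85. In control cells the TGFβ1 value ran from 0.55 to 1.12, and the fit without control TGFβ1 replicate 3 was the 1 that called it.

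**Figure D2:**
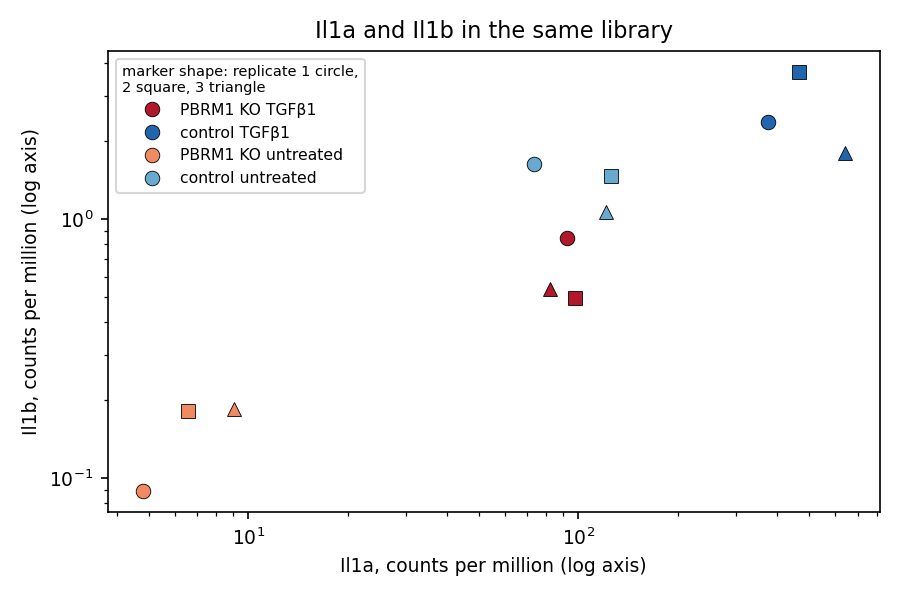
Il1b against Il1a in the same library, both in CPM on log axes, for 12 libraries coloured by group. Untreated PBRM1 KO libraries lie lowest on both axes, at 1 or 2 counts of Il1b, and PBRM1 KO libraries with TGFβ1 lie near the untreated control libraries on the Il1a axis but below them on the Il1b axis (0.498 to 0.849 against 1.06 to 1.63 CPM).

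The ratio of Il1a to Il1b counts was compared between libraries, as a within-library measure that does not depend on library size. It was 109, 196 and 152.5 in PBRM1 KO cells with TGFβ1 and 54.0, 36.0 and 49.0 in untreated PBRM1 KO cells. In control cells it was 157.5, 125 and 356 with TGFβ1 and 44.9, 85.1 and 114 untreated. With TGFβ1 the ratio was higher in both genotypes and the ranges did not overlap. The ranges of PBRM1 KO and control cells overlapped both with TGFβ1 and untreated, and the ratio rests on few counts of Il1b.

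Il1rn had 2 counts in all. It had 1 count in PBRM1 KO TGFβ1 replicate 2, 1 count in untreated control replicate 1 and 0 counts in the other 10 libraries. A count of 0 allows a level of up to 0.267 to 0.324 CPM in these libraries, for counting error only. Il1rn did not pass the filter on low counts and was not tested, and its level relative to the cytokine genes cannot be followed at this depth.

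Il1rap varied with TGFβ1 and little with genotype. It had 19.1, 19.0 and 16.3 CPM in PBRM1 KO cells with TGFβ1 and 11, 12.3 and 11.8 CPM in untreated PBRM1 KO cells. Control cells had 24.2, 25.1 and 15.7 CPM with TGFβ1 and 10.1, 11.4 and 9.36 CPM untreated. TGFβ1 and untreated libraries did not overlap in either genotype, while PBRM1 KO and control libraries overlapped with TGFβ1 and untreated. With TGFβ1 the overlap came from replicate 3 of the control cells, and replicates 1 and 2 were higher in control than in PBRM1 KO cells. The means were 18.1 ± 1.60 CPM in PBRM1 KO cells with TGFβ1, 11.7 ± 0.640 CPM in untreated PBRM1 KO cells, 21.6 ± 5.16 CPM in control cells with TGFβ1 and 10.3 ± 1.04 CPM in untreated control cells (SD, n = 3 each).

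The log2 fold change of Il1rap with TGFβ1 was 0.62 ± 0.16 (SE) in PBRM1 KO cells and 1.06 ± 0.16 in control cells. For PBRM1 KO over control it was −0.27 ± 0.15 with TGFβ1 and 0.18 ± 0.17 untreated, and neither was among the called genes. With TGFβ1 the genotype value ran from −0.38 to −0.25 under 7 alternatives, which include the fit without both TGFβ1 replicate 3 libraries. It was called in none of them. Replicate 3 was the lowest TGFβ1 library in both genotypes, and these are the libraries that stood apart on the first principal component. Without both TGFβ1 replicate 3 libraries the log2 fold change with TGFβ1 was 0.68 in PBRM1 KO cells and 1.24 in control cells. In PBRM1 KO cells, Il1rap left the called genes in 5 of 6 fits without 1 library, all but that without PBRM1 KO TGFβ1 replicate 3, with values from 0.56 to 0.66.

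**Figure D3:**
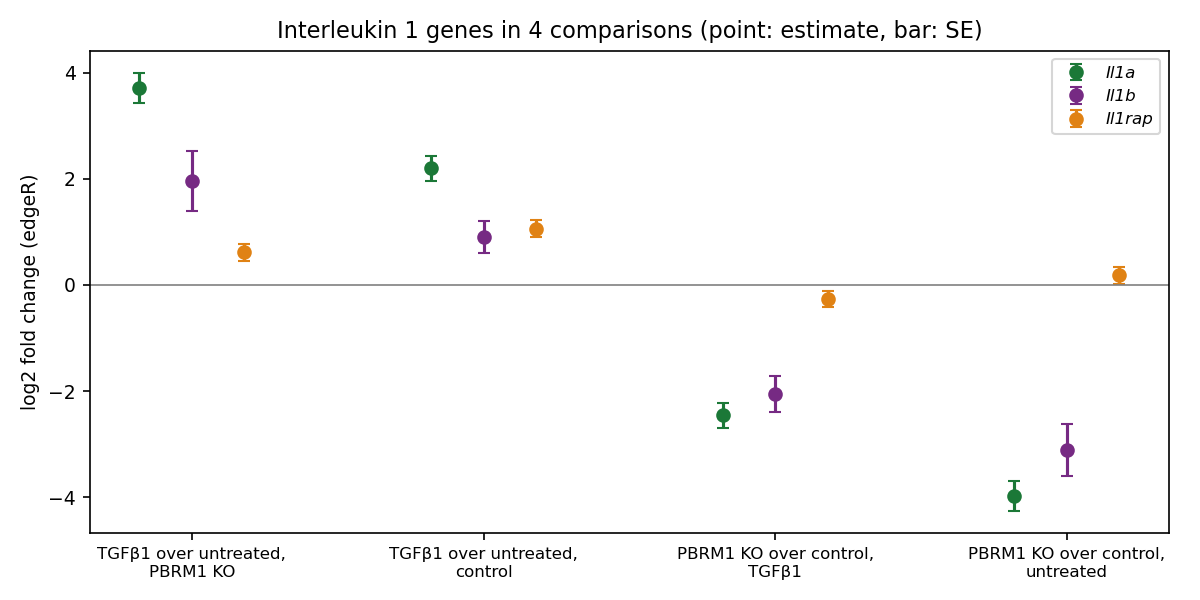
Log2 fold change of Il1a, Il1b and Il1rap in the 4 comparisons, from 1 edgeR fit of 12 libraries; points are estimates and bars SE. Il1a runs from 3.72 with TGFβ1 in PBRM1 KO cells to −3.98 by genotype untreated, Il1b has the same signs with wider bars, and Il1rap lies near 0 by genotype. The comparisons share groups and are not independent.

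Whether the TGFβ1 effect differed between genotypes was tested on the same comparisons that the members were chosen on. The p-values are therefore not independent of the choice. The value tested was the difference of the log2 fold changes, PBRM1 KO minus control. It was 1.52 ± 0.36 for Il1a (SE), with an unadjusted p of 0.000918 and an adjusted p of 1.00 by edgeR over 14012 genes, and a DESeq2 adjusted p of 0.0944. It did not pass, and it was positive in all 12 fits that left out 1 library, at 1.32 to 1.78. With no filter on low counts, edgeR gave 1.51 with an adjusted p of 4.62e-14, below the threshold. That estimate is close to the 1.52 of the filtered fit, so the move lies in the p-value. The cause of the move was not tested, and nothing is read from it. For Il1b the difference was 1.05 ± 0.64 (unadjusted p 0.126 by edgeR) and for Il1rap it was −0.45 ± 0.23 (unadjusted p 0.0678 by edgeR), both with an adjusted p of 1.00. Without both TGFβ1 replicate 3 libraries the difference was 1.82 for Il1a, 0.94 for Il1b and −0.57 for Il1rap, with adjusted p of 0.206, 1.00 and 1.00 by edgeR. Among all genes edgeR called 0 in the filtered fit of 12 libraries, with 247 at an unadjusted p below 0.05, and DESeq2 called 0. Over the alternative settings the calls among all genes ran from 0 to 8 higher and from 0 to 10 lower. Calls under the alternatives were thus not limited to Il1a.

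The rest of the pathway was followed with 76 genes in 5 roles, of which 71 had counts and 53 passed the filter. Like the members, these lists were chosen with earlier results of the same libraries known. Their counts, p-values and medians are therefore given as a description. In PBRM1 KO cells 13 of the 53 were called higher with TGFβ1 and 2 lower, and in control cells 13 higher and 3 lower (edgeR, adjusted p below 0.05). Either direction counted, 11.4% and 8.81% of all tested genes were called. In PBRM1 KO over control cells, 0 rose in either condition, 3 fell with TGFβ1 and 5 fell untreated, where 0.271% and 0.278% of all tested genes were called. At an unadjusted p below 0.05 edgeR had 17 of the 53 genes with TGFβ1 and 14 untreated, either direction counted. DESeq2 called 5 and 7. No share of all tested genes is given for such genotype counts, here or below, so nothing is read from them. The median log2 fold change of the 53 genes was 0.21 with TGFβ1 in PBRM1 KO cells and 0.13 in control cells, and −0.06 by genotype with TGFβ1 and −0.09 untreated. Over all genes tested, each of these medians was within 0.01 of 0. Without both TGFβ1 replicate 3 libraries, 19 pathway genes passed with TGFβ1 in PBRM1 KO cells and 25 in control cells. By genotype with TGFβ1 4 passed, and these sets held all 15, 16 and 3 called with those libraries. For these counts too no share of all genes is given, so nothing is read from them.

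All pathway genes that fell by genotype were in the list of 20 genes known to respond to interleukin 1 through NF-κB, of which 14 were tested. Since this list too was chosen with earlier results known, its calls are not independent of the choice. Whether interleukin 1 signalling differed between genotypes was not tested. Lcn2, which encodes the siderophore-binding lipocalin 2, had 4.34, 3.68 and 5.18 CPM in PBRM1 KO cells and 56.4, 66.4 and 128 CPM in control cells with TGFβ1. Untreated, it had 0.711, 1.09 and 1.39 CPM in PBRM1 KO cells and 24.4, 37.4 and 33.8 CPM in control cells. Its groups stood apart in both conditions, and it fell by 4.25 ± 0.32 with TGFβ1 and fell by 4.90 ± 0.40 untreated on the log2 scale (SE; edgeR adjusted p 7.00e-05 and 6.08e-05). Ccl20, the chemokine that binds CCR6, averaged 3.78 ± 0.434 CPM in PBRM1 KO cells and 11.2 ± 2.77 CPM in control cells with TGFβ1, and fell by 1.57 ± 0.24 (edgeR adjusted p 0.0162). Untreated it averaged 0.881 ± 0.462 CPM in PBRM1 KO cells and 6.11 ± 1.15 CPM in control cells, and fell by 2.78 ± 0.32 (edgeR adjusted p 0.00169). Csf3, the granulocyte growth factor G-CSF, averaged 35.6 ± 2.76 CPM in PBRM1 KO cells and 94.8 ± 29.3 CPM in control cells with TGFβ1, and 18.2 ± 1.55 CPM in PBRM1 KO cells and 51.5 ± 10.3 CPM in control cells untreated. It fell by 1.43 ± 0.20 with TGFβ1 and fell by 1.50 ± 0.21 untreated (edgeR adjusted p 0.0104 and 0.00746).

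Untreated, 2 more responsive targets fell by genotype. Cxcl1, a neutrophil chemokine, fell by 2.32 ± 0.41 on the log2 scale, to 12.6 ± 3.32 CPM in PBRM1 KO cells, against 63.0 ± 17.9 CPM in control cells (edgeR adjusted p 0.0334). Nfkbiz, which encodes the nuclear NF-κB cofactor IκBζ, fell by 1.02 ± 0.16 on that scale, to 16.5 ± 3.88 CPM in PBRM1 KO cells, against 33.4 ± 2.49 CPM in control cells (edgeR adjusted p 0.0186). With TGFβ1 their log2 fold changes by genotype were −1.85 ± 0.41 and −0.45 ± 0.15, and neither passed (edgeR adjusted p 0.102 and 0.367). The median of the 14 targets by genotype was −0.72 with TGFβ1 and −1.18 untreated, beside all-gene medians within 0.01 of 0. Given how the list was chosen, nothing is read from these medians.

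Of the genotype calls, Lcn2 in both conditions and Ccl20 untreated held in every fit without 1 library. Cxcl1 untreated was lost in all 6 such fits (−2.56 to −2.12), and Nfkbiz untreated in 4, without PBRM1 KO replicate 1 or 3 or control replicate 1 or 2 (−1.19 to −0.85). Csf3 was lost without untreated PBRM1 KO replicate 1 or 3 (−1.66 to −1.36) and without PBRM1 KO TGFβ1 replicate 2 (−1.57 to −1.13). Ccl20 with TGFβ1 was lost without PBRM1 KO TGFβ1 replicate 1 or 2 or control TGFβ1 replicate 1 (−1.70 to −1.36). With the replicate number as a block, 6 genes fell by genotype with TGFβ1, the same 3 and Casp1, Casp4 and Cxcl1, where Cxcl1 had −1.77 (edgeR adjusted p 0.0296). Without both TGFβ1 replicate 3 libraries, 4 fell, the same 3 and Casp1.

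With TGFβ1, 7 of 14 targets rose in PBRM1 KO cells, and 7 rose and 1 fell in control cells. Of all tested genes, 7.65% were called higher in PBRM1 KO cells and 5.89% in control cells. The 4 with the smallest p in PBRM1 KO cells were Nfkbiz, Ccl20, Zc3h12a and Csf3. Nfkbiz rose on the log2 scale by 1.18 ± 0.16 in PBRM1 KO cells and by 0.61 ± 0.15 in control cells (edgeR adjusted p 0.000716 and 0.0268). Ccl20 rose by 2.08 ± 0.33 in PBRM1 KO cells and by 0.87 ± 0.23 in control cells (edgeR adjusted p 0.00204 and 0.0338). Zc3h12a, which encodes the RNase regnase-1 that degrades cytokine transcripts, rose by 2.02 ± 0.33 in PBRM1 KO cells and by 1.25 ± 0.29 in control cells (edgeR adjusted p 0.00239 and 0.0193). Csf3 rose by 0.95 ± 0.21 in PBRM1 KO cells and by 0.88 ± 0.19 in control cells (edgeR adjusted p 0.0112 and 0.0147). Birc3, the apoptosis inhibitor cIAP2, Ptgs2, the prostaglandin synthase COX-2, and Lcn2 completed the 7 in both genotypes, with log2 fold changes of 0.87, 0.75 and 2.04 in PBRM1 KO cells and 0.71, 0.90 and 1.39 in control cells. All 7 genes that rose were shared between the genotypes, and 0 of 14 targets passed the test of a difference between them (2 at an unadjusted p below 0.05 by edgeR, and 0 by DESeq2).

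In PBRM1 KO cells the calls for Nfkbiz, Ccl20 and Zc3h12a held in every fit without 1 library. Csf3 was lost without untreated replicate 1 (0.87 to 0.98) and Birc3 without TGFβ1 replicate 2 or untreated replicate 3 (0.74 to 0.98). Ptgs2 was lost without TGFβ1 replicate 2 or untreated replicate 1 or 2 (0.59 to 0.90), and Lcn2 without TGFβ1 replicate 1 or untreated replicate 1 or 2 (1.80 to 2.26). Among control cells the calls for Ptgs2 and Lcn2 held in every such fit, and Csf3 was lost without untreated replicate 1 (0.58 to 1.01). Zc3h12a was lost without TGFβ1 replicate 1 or untreated replicate 1 or 3 (0.88 to 1.45). Nfkbiz, Ccl20 and Birc3 held only without TGFβ1 replicate 3 (0.56 to 0.66, 0.64 to 1.00 and 0.59 to 0.89).

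Cxcl5, another neutrophil chemokine, went the other way from the other called targets. It had 2.26, 2.19 and 6.79 CPM with TGFβ1 and 11.4, 13.2 and 11.3 CPM untreated in PBRM1 KO cells, where its log2 fold change was −1.66 ± 0.80 (edgeR adjusted p 0.202). In control cells it had 8.53, 3.53 and 50.1 CPM with TGFβ1 and 76.7, 129 and 97.3 CPM untreated, and it fell by 2.28 ± 0.62 (edgeR adjusted p 0.0393). TGFβ1 replicate 3 was the highest of its group in both genotypes. Without control TGFβ1 replicate 3 the value in control cells was −4.11, and the call was lost in the 5 fits that left out another library of the 6.

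**Figure D4:**
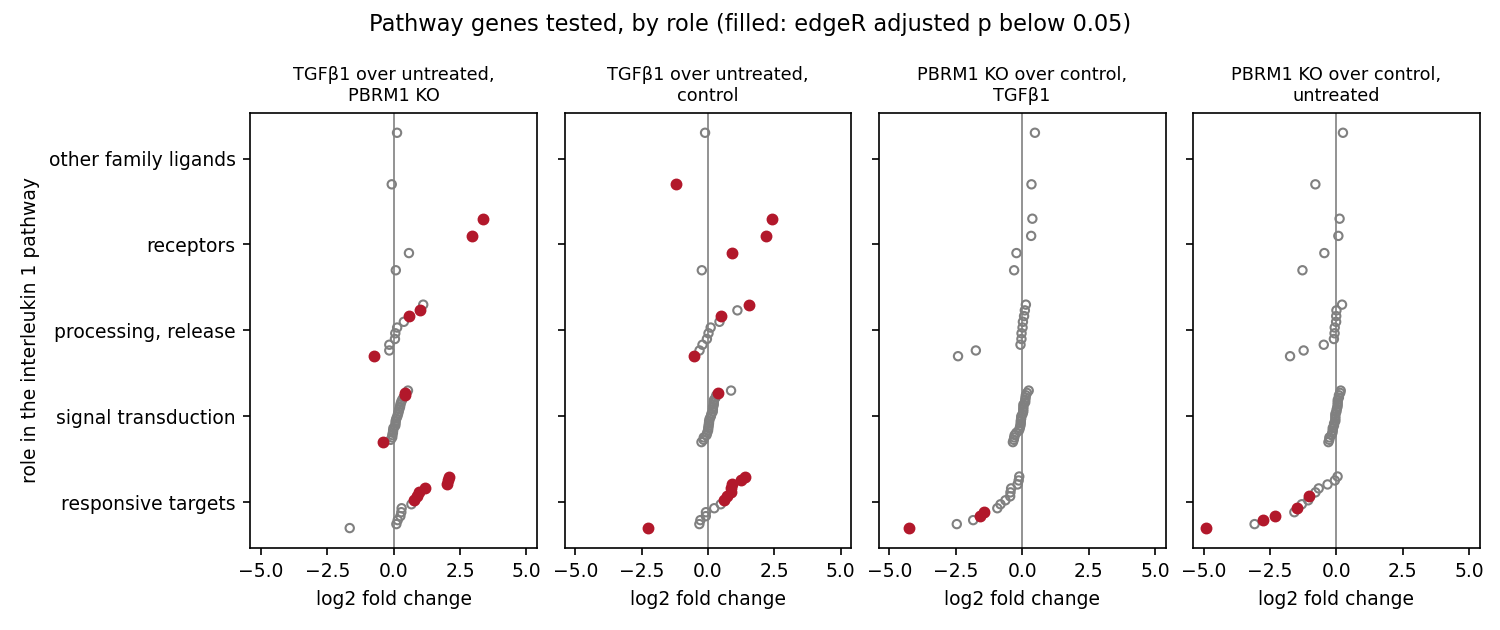
Log2 fold change (x axis) of the 53 tested pathway genes in rows by role, for the 4 comparisons. Filled points passed edgeR's adjusted p of 0.05 and open points did not; the genotype panels have filled points only among responsive targets, 3 with TGFβ1 and 5 untreated, all to the left of 0.

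Of 9 receptor genes, 4 were tested, and 2 rose with TGFβ1 in PBRM1 KO cells and 3 in control cells, beside 7.65% and 5.89% of all tested genes. Il18rap, the signalling partner chain of the interleukin 18 receptor, had 46.9, 41.0 and 12.7 CPM with TGFβ1 and 3.38, 3.18 and 2.96 CPM untreated in PBRM1 KO cells. Control cells had 50.3, 49.6 and 22.9 CPM with TGFβ1 and 8.95, 7.55 and 6.60 CPM untreated. TGFβ1 replicate 3 was the lowest of its group in both genotypes and still above every untreated library. Il18rap rose on the log2 scale by 3.37 ± 0.45 in PBRM1 KO cells and by 2.40 ± 0.40 in control cells (edgeR adjusted p 0.000609 and 0.00313). Il1rl1, which encodes the interleukin 33 receptor ST2 and pairs with the Il1rap product, rose by 2.97 ± 0.52 in PBRM1 KO cells and by 2.17 ± 0.51 in control cells (edgeR adjusted p 0.00332 and 0.0206). In control cells that call was lost in 5 of 6 fits without 1 library, all but that without control TGFβ1 replicate 3 (1.83 to 2.55).

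Il1r1, the signalling receptor for both cytokines, had a mean of 6.89 ± 2.12 CPM with TGFβ1 and 4.56 ± 0.461 CPM untreated in PBRM1 KO cells. In control cells it had 7.93 ± 1.63 CPM with TGFβ1 and 4.18 ± 0.580 CPM untreated. Its log2 fold change was 0.57 ± 0.22 in PBRM1 KO cells (edgeR adjusted p 0.110; 0.56 with an adjusted p of 0.0181, which passes, with the replicate number as a block) and it rose by 0.91 ± 0.22 in control cells (edgeR adjusted p 0.0233), a call lost in 5 of 6 fits without 1 library, again all but that without control TGFβ1 replicate 3 (0.75 to 1.05). The difference between genotypes was −0.34 ± 0.31 with an adjusted p of 1.00 by edgeR. Il1r2, the decoy receptor, had 9 counts with TGFβ1 and 3 untreated in PBRM1 KO cells, and 38 with TGFβ1 and 2 untreated in control cells. It was below the filter and not tested. By genotype 0 receptors passed, with 0 at an unadjusted p below 0.05 with TGFβ1 and 1 untreated by edgeR, and 0 called by DESeq2.

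Among 15 genes of processing and release, 10 were tested. Casp8, a caspase that can cut the interleukin 1β precursor, rose with TGFβ1 on the log2 scale by 0.57 ± 0.11 in PBRM1 KO cells and by 0.48 ± 0.11 in control cells (edgeR adjusted p 0.00504 and 0.0169). Nek7, a kinase needed to assemble the NLRP3 inflammasome, fell by 0.75 ± 0.12 in PBRM1 KO cells and fell by 0.51 ± 0.12 in control cells (edgeR adjusted p 0.00202 and 0.0206). Gsdmd, whose product forms the pore through which interleukin 1β leaves the cell, rose by 0.98 ± 0.28 in PBRM1 KO cells (edgeR adjusted p 0.0414) and had 0.43 ± 0.28 in control cells (edgeR adjusted p 0.358). Casp1, the main caspase for the interleukin 1β precursor, rose by 1.56 ± 0.43 in control cells (edgeR adjusted p 0.0394), at 2.38 ± 0.964 CPM with TGFβ1 and 0.800 ± 0.137 CPM untreated. In PBRM1 KO cells Casp1 had 14 counts with TGFβ1 and 11 untreated, with a log2 fold change of 0.38 ± 0.67 (edgeR adjusted p 0.765). The difference of its TGFβ1 effect between genotypes, −1.18 ± 0.83, did not pass (edgeR adjusted p 1.00). By genotype 0 genes of this role passed, with 2 at an unadjusted p below 0.05 with TGFβ1 and 1 untreated by edgeR, while DESeq2 called 1 with TGFβ1 and 0 untreated. With the replicate number as a block, 2 passed by genotype with TGFβ1, Casp1 at −2.39 and Casp4, the caspase-11 gene, at −1.73. Their edgeR adjusted p was 0.0140 and 0.0444, against 0.0650 and 0.127 with no block. With TGFβ1 Casp4 had 13 counts in PBRM1 KO cells and 43 in control cells, so its value rests on few counts.

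The calls for Casp8 and Nek7 in PBRM1 KO cells held in every fit without 1 library. In control cells Casp8 was lost in 4 of 6 (0.42 to 0.53), with only the fits without TGFβ1 replicate 3 or untreated replicate 2 keeping it, and Nek7 in 2, without TGFβ1 replicate 2 or untreated replicate 3 (−0.58 to −0.40). Gsdmd was lost in 4 of 6, all but those without PBRM1 KO TGFβ1 replicate 3 or untreated PBRM1 KO replicate 2 (0.74 to 1.26). Casp1 was lost in 5 of 6, all but that without control TGFβ1 replicate 3 (1.21 to 1.83).

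Of 24 genes of signal transduction, 23 were tested. With TGFβ1, 3 of the 23 passed in PBRM1 KO cells and 1 in control cells, beside 11.4% and 8.81% of all tested genes. In PBRM1 KO cells with TGFβ1, Peli1, a ubiquitin ligase of the IRAK complex, rose by 0.42 ± 0.11 on the log2 scale and Mapk9, the kinase JNK2, by 0.44 ± 0.12, while Mapk14, the kinase p38α, fell by 0.41 ± 0.10 (edgeR adjusted p 0.0261, 0.0307 and 0.0161). In control cells Nfkb1, the NF-κB precursor p105, rose by 0.39 ± 0.09 (edgeR adjusted p 0.0238). By genotype 0 passed, with 5 at an unadjusted p below 0.05 with TGFβ1 and 1 untreated by edgeR, and 0 called by DESeq2. Peli1 and Mapk9 kept the call in 1 of 6 fits without 1 library, that without PBRM1 KO TGFβ1 replicate 3, and Nfkb1 likewise in that without control TGFβ1 replicate 3 (0.31 to 0.49, 0.38 to 0.48 and 0.33 to 0.44). Mapk14 was lost without PBRM1 KO TGFβ1 replicate 2 or untreated PBRM1 KO replicate 1 (−0.45 to −0.37). Of 8 other ligands and antagonists of the family, 4 had 0 counts in all libraries and 2, Il18 and Il18bp, were tested. Il18bp, the decoy for interleukin 18, fell by 1.22 ± 0.33 with TGFβ1 in control cells (edgeR adjusted p 0.0366), a call lost in all 6 fits without 1 library (−1.30 to −1.16).

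Since Il1a and Il1b are neighbours, the 3 protein-coding genes on each side of the pair were examined. Chchd5, Slc20a1 and Ckap2l precede Il1a, and F830045P16Rik, Sirpa and Pdyn follow Il1b. F830045P16Rik and Pdyn had 0 counts. None of the other 4 passed by genotype, where 0.271% of all tested genes were called with TGFβ1 and 0.278% untreated. At such shares 4 genes without a call say little. Whether the change was confined to the pair was not tested. Ckap2l, a mitotic spindle gene, is the one next to Il1a. It averaged 131 ± 15.8 CPM in untreated PBRM1 KO cells and 158 ± 6.58 CPM in untreated control cells. Its log2 fold change untreated was −0.27 ± 0.09 (edgeR adjusted p 0.357, unadjusted p 0.00763). For Sirpa, a myeloid and neuronal signal-regulatory receptor, it was 0.24 ± 0.14 (edgeR adjusted p 0.826). Slc20a1, a phosphate transporter, rose with TGFβ1 on the log2 scale by 0.99 ± 0.15 in PBRM1 KO cells and by 0.93 ± 0.15 in control cells (edgeR adjusted p 0.00121 and 0.00214), and had −0.29 ± 0.15 by genotype untreated (edgeR adjusted p 0.715).

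**Figure D5:**
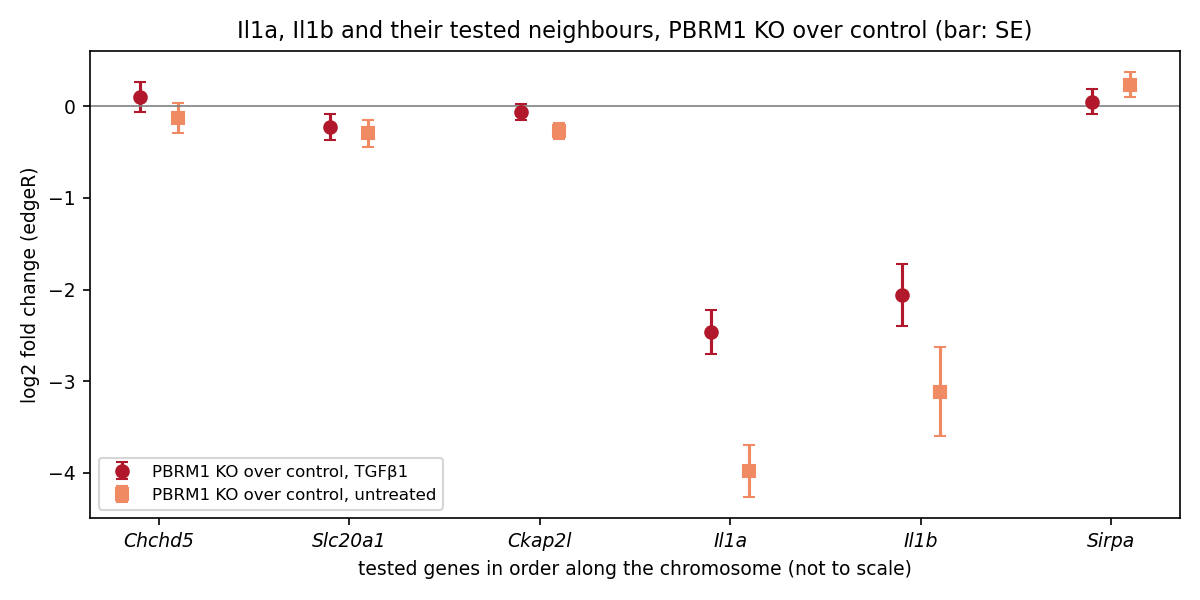
Log2 fold change of PBRM1 KO over control for Il1a, Il1b and the tested genes beside them, in chromosomal order and not to scale; points are edgeR estimates and bars SE. The 4 neighbours lie between −0.29 and 0.24, and Il1a and Il1b between −3.98 and −2.06.

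The genes whose pattern was most like each member were found by the root-mean-square difference of centred log2 CPM over the 12 libraries. For Il1a these were Lcn2, Ccl20 and Nos2, the inducible nitric oxide synthase, at 0.97, 1.03 and 1.08, so even the nearest gene differed from it by about 1 log2 unit. For Il1b they were C3, the central complement component, Slc4a4, a bicarbonate transporter, and Hsd17b11, a steroid and lipid dehydrogenase, at 0.28, 0.46 and 0.46. For Il1rap they were Antxr2, the anthrax toxin receptor, Schip1 and Slc39a14, a zinc and iron transporter, at 0.14, 0.14 and 0.16. Il1a and Il1b were 1.26 apart, Il1b and Il1rap 1.03, and Il1a and Il1rap 2.01. A low level shrinks such a difference, since 2 counts are added before the logarithm, so the distances of Il1b are not on the same footing as those of the others.

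The leukocyte list was set beside the members because myeloid cells are a common source of interleukin 1. The summed level of its 12 genes was 25.6 to 28.9 CPM in PBRM1 KO cells and 24.9 to 29.4 CPM in control cells with TGFβ1, and 17.3 to 22.1 CPM in PBRM1 KO cells and 18.7 to 21.7 CPM in control cells untreated. The sum was higher with TGFβ1 and overlapped between genotypes. Cd14, the lipopolysaccharide co-receptor, made up most of it, at 17.8 ± 1.36 CPM with TGFβ1 and 10.0 ± 1.42 CPM untreated in PBRM1 KO cells, and 18.9 ± 1.98 CPM with TGFβ1 and 12.5 ± 1.72 CPM untreated in control cells. Cd14 rose with TGFβ1 by 0.82 ± 0.14 in PBRM1 KO cells and by 0.60 ± 0.14 in control cells on the log2 scale (edgeR adjusted p 0.00306 and 0.0200). The call in PBRM1 KO cells held in every fit without 1 library (0.73 to 0.92), and that in control cells in 2 of 6, those without TGFβ1 replicate 3 or untreated replicate 2 (0.46 to 0.68). Cd68, a lysosomal protein of macrophages, had 6.82 ± 0.330 CPM in PBRM1 KO cells and 4.65 ± 0.955 CPM in control cells with TGFβ1, and 6.89 ± 1.58 CPM in PBRM1 KO cells and 5.50 ± 0.477 CPM in control cells untreated. Lyz2, the lysozyme of myeloid cells, had 2.07 ± 0.154 CPM in PBRM1 KO cells and 1.67 ± 0.336 CPM in control cells with TGFβ1, and 2.08 ± 0.556 CPM in PBRM1 KO cells and 1.58 ± 0.430 CPM in control cells untreated. Of the 3 genes of the list that were tested, 0 passed by genotype, with 1 at an unadjusted p below 0.05 in each condition by edgeR and 0 called by DESeq2. The pan-leukocyte gene Ptprc had 1 count in PBRM1 KO cells and 3 in control cells with TGFβ1, and 2 in PBRM1 KO cells and 0 in control cells untreated, and S100a9 had 0 counts in all libraries. The part of such cells in the values of Il1a and Il1b was not tested.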

How the data were processed

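Messenger RNA of 12 libraries was primed on the poly(A) tail and counted at the 3′ end, with molecular identifiers used to remove duplicates and reads stranded, per the labels' protocols. The submitters' processing notes name build mm39 and the tools STAR 2.7.11, fastp 0.24.0, Subread 2.1.1 with featureCounts, SAMtools 1.22.1 and edgeR 3.38.4. Settings and annotation: not given in the sources used here. Among the deposited values are expected counts, of which 91.8% are whole (tolerance 0). The deposited CPM values, CPM per the file headers, equalled count over library total. Sharing a read among genes could blur near-identical copies; of the members, 1 library of Il1a had a fractional count.

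Counts were rounded, filtered with filterByExpr, which left 14012 of 78317 genes (35661 with any count), scaled by TMM and fitted jointly over the 12 libraries with a mean for each group (edgeR 4.0.16, R 4.3.3). Contrasts were tested by quasi-likelihood, and p-values were Benjamini-Hochberg adjusted over all genes tested. The common biological coefficient of variation was 12.5%. SE was obtained by dividing the log2 fold change by the root of the F statistic. DESeq2 1.42.0 was an alternative. The edgeR procedure was tried on simulated data for PBRM1 KO over control untreated only, with the same spread for every gene. Changes were simulated only in genes with more counts than Il1b. It therefore does not cover Il1b or the difference of the TGFβ1 effect between genotypes. Intervals at 95% and floors of 3 counts for a count of 0 cover counting error only.

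The members and lists were chosen with earlier results of these data known. Named were the members, up to 4 called genes per role and comparison by smallest p, the 3 genes on each side of a member and the 3 of most similar pattern; Birc3, Casp4, Cd14, Cd68, Cxcl1, Cxcl5, Il1r2, Lyz2 and the epithelial markers were named after their values were seen. Same-numbered libraries deviated together between genotypes with TGFβ1, with correlations of 0.396 to 0.726. Between TGFβ1 and untreated PBRM1 KO cells the correlations were 0.139 to 0.202. Such a pairing is read from the data and not the labels. The main fit had no replicate block and does not use it, and the block was an alternative fit. Neighbours came from a RefSeq table of another build and were used only for names and order. Motifs were searched on both strands of RefSeq promoters.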

Additional observations from a re-analysis of the deposited data

How the results depend on the processing

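The log2 fold changes of the 3 tested members kept their direction in all 5 comparisons under RLE scaling, no filter, unrounded counts, DESeq2, the replicate block, fits without TGFβ1 replicate 3 and, where a value could be had, only the 6 libraries compared, which dropped Il1b for TGFβ1 in PBRM1 KO cells. With no filter on low counts the difference of the Il1a TGFβ1 effect between genotypes, 1.51, passed (adjusted p 4.62e-14); under the other alternatives its adjusted p ran from 0.0944 to 1.00, and the cause was not tested. Of the 53 tested pathway genes, those lower in PBRM1 KO than control cells with TGFβ1 numbered 3, and 9 with no filter, 6 with the replicate block, 5 by DESeq2 and 1 with only 6 libraries. Untreated they numbered 5, and 10 with no filter and 8 with only 6 libraries. With TGFβ1 in control cells, 20 were higher and 5 lower without both TGFβ1 replicate 3 libraries, against 13 and 3. Leaving out 1 library gave 7 to 15 higher and 1 to 2 lower with TGFβ1 in PBRM1 KO cells, 3 to 18 higher and 0 to 3 lower in control cells, and 1 to 4 lower by genotype with TGFβ1 and 2 to 4 untreated. It gave Il1b 0.55 to 1.12 with TGFβ1 in control cells and −2.32 to −1.72 by genotype with TGFβ1. The cause of these moves was not tested.

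In control cells same-numbered libraries correlated at −0.08 to 0.26 between TGFβ1 and untreated, and between genotypes untreated at 0.07 to 0.15. Both ranges overlap the 0.139 to 0.202 of TGFβ1 and untreated PBRM1 KO cells, and only the genotypes with TGFβ1 correlated more. With the replicate block, 21 pathway genes were called with TGFβ1 in control cells, against 16, and 7 by genotype untreated, against 5. The block changed the call of Il1b with TGFβ1 in control cells (adjusted p 0.0307) and of no other tested member. Over all genes, calls higher with TGFβ1 in PBRM1 KO cells numbered 1072, and 438 to 2277 under the alternatives; lower by genotype they numbered 28 with TGFβ1 (3 to 181) and 33 untreated (8 to 191). Depth limits Il1b, at 1 to 9 counts per PBRM1 KO library, and Il1rn, which could not be tested.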
